A study of Mus musculus with 4 samples.

Results

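Expression of 10 mouse genes of bile acid synthesis, regulation and transport was followed in liver nuclei sequenced one by one (single-nucleus RNA-seq). The genes were taken by name out of the 32285 mouse genes in the count matrices and read in 30836 hepatocyte nuclei: Cyp7a1, Cyp8b1, Cyp27a1, Cyp7b1, Cyp39a1, Nr0b2, Nr1h4, Slc10a1, Abcb11 and Slc27a5. All 10 were present in the matrices and all 10 passed the filter on low counts of the zone test.

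Hepatocytes make bile acids from cholesterol, and this is the main way in which the body disposes of cholesterol. In the classic route Cyp7a1 adds a hydroxyl group to the cholesterol ring and sets the pace, and Cyp8b1 decides how much cholic acid is formed. In the alternative route Cyp27a1 oxidises the side chain first, after which Cyp7b1 or, for another oxysterol, Cyp39a1 modifies the ring. Bile acids bind the nuclear receptor FXR, encoded by Nr1h4, which induces SHP, encoded by Nr0b2 and known to repress Cyp7a1, and the canalicular bile salt export pump, encoded by Abcb11. Slc10a1 encodes NTCP, which takes bile acids up from the blood, and Slc27a5 encodes the ligase that activates them before they are conjugated again.

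The study made 4 libraries, each from frozen liver of Bl/6 mice. The mice ate a chow diet (CD) or a low-protein diet (LPD) for 1 week, then had DNA injected into the tail vein. They stayed on their diet for 2 weeks until sampling. The injection brought in either an empty vector (control) or human c-MET and a shortened human β-catenin (oncogene, spelled "concogene" in the titles), both driven by an EF1α promoter and put into the genome by Sleeping Beauty transposase. Such an injection reaches only some hepatocytes, and all 4 groups received it. Each group was 1 library; how many mice it held is not given in the sources used here. Injection groups within a diet had no replicate to test, and a test of the 2 LPD against the 2 CD libraries was not run. The general methods give young adult males, sampled in the early afternoon after a fast unless stated otherwise. The libraries held 44010 barcodes, 9826 to 13014 each, of which 42877 were kept, with medians of 1762 to 3807 UMIs (unique molecular identifiers, one per captured RNA molecule) per nucleus, the CD libraries being the deeper pair. Pairs of libraries shared 18 to 40 barcodes.

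Transgene RNA did not follow the labels on CD. The library labelled CD control held 100 UMIs of the human genes, the library labelled CD oncogene held 0 UMIs, which allows a level of up to 0.0477 CPM (UMIs scaled to a common library total), the library labelled LPD control also held 0 UMIs, which allows up to 0.129 CPM, and the library labelled LPD oncogene held 6 UMIs. Libraries are therefore named below by their labels, and every CD ratio by injection label given below changes sign if those labels are exchanged. The nuclei numbers that the study states for the CD pair also rank the groups the other way round from the deposited libraries. Ddx3y, on the Y chromosome, stood at 96.9 to 117 CPM and Xist, made by an inactive X chromosome, at 0.217 to 0.843 CPM in the hepatocyte nuclei of the 4 libraries.

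Hepatocyte nuclei numbered 7658, 9166, 7488 and 6524 in the control and oncogene libraries on CD and then those on LPD, the order kept for values below. Their defining RNAs were also found in other nuclei: albumin RNA stood at 3981 to 7402 CPM in hepatocyte nuclei and at 3710 to 6858 CPM in nuclei of other cell types. Free RNA of this kind adds a background to every value, so each gene's share of nuclei with at least 1 UMI is set beside the share in the other nuclei of the same library. Shares were taken over nuclei with at least 1000 UMIs, each reduced at random to that number. Intervals are exact 95% intervals, Poisson for CPM and Clopper-Pearson for shares, and cover counting error only.

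The genes differ in how much of a nuclear signal they can give, because unspliced RNA counts with their length if introns were counted, which the sources used here do not state. In GRCm38 with GENCODE annotation, Cyp8b1 has 1 exon and spans 1.95 kb (chromosome 9, 121914356 to 121916305, minus strand), Nr0b2 has 2 exons over 3.16 kb (chromosome 4, 133553376 to 133556536, plus strand) and Cyp7a1 has 6 exons over 10.0 kb (chromosome 4, 6265612 to 6275633, minus strand). Cyp7b1 spans 171 kb on chromosome 3 (18071950 to 18243338, minus strand), Abcb11 spans 104 kb on chromosome 2 (69238282 to 69342616, minus strand), Cyp39a1 spans 84.0 kb on chromosome 17 (43667425 to 43751431, plus strand) and Nr1h4 spans 79.4 kb on chromosome 10 (89454234 to 89533585, minus strand). Cyp27a1 spans 24.3 kb on chromosome 1 (74713574 to 74737892, plus strand), Slc10a1 15.5 kb on chromosome 12 (80953183 to 80968705, minus strand) and Slc27a5 9.85 kb on chromosome 7 (12988346 to 12998192, minus strand). Only Abcb11 overlaps another gene of the matrices, Gm13613 on the opposite strand. No level of one gene is compared with that of another.

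Promoters are shown for 3 genes that the results turn on: Cyp27a1, which differed between zones, Nr0b2, which differed most between libraries of one diet, and Abcb11, the textbook FXR target. The sequences are the 250 bases before the start site, 5′ to 3′ on the gene's strand, from RefSeq on GRCm38.p6, and capitals mark matches to the letters searched on either strand (AGGTCA and AGTTCA, the short sites that nuclear receptors bind alone or in pairs; CAAGGTCA; TTATGNAA, bound by Dbp and its relatives; an inverted repeat of AGGTCA spaced by 1 base; and direct repeats of such sites spaced by 0 to 5 bases). CAAGGTCA and both kinds of repeat contain the shorter sites.
Cyp27a1, chr1:74713285-74713534, plus strand: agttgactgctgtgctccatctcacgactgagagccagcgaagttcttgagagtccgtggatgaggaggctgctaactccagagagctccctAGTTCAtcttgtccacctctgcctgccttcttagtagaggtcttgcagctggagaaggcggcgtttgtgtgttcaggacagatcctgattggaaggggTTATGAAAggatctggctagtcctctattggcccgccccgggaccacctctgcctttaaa
Nr0b2, chr4:133553126-133553375, plus strand: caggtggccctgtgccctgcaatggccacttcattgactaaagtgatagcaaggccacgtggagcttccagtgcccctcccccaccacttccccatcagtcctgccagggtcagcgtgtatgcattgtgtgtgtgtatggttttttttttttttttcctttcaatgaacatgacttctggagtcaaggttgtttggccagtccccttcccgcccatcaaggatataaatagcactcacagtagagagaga
Abcb11, chr2:69342617-69342866, minus strand: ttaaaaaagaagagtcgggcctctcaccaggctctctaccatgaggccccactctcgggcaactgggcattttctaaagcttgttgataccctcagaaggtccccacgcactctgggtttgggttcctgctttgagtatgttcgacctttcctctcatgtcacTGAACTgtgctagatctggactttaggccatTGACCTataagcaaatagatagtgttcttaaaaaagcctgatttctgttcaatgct

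Cyp27a1 held an AGTTCA at bases -158 to -153 and a TTATGAAA at bases -60 to -53 from the start site. Abcb11 held the reverse complements of AGTTCA at bases -87 to -82 and of AGGTCA at bases -56 to -51, and Nr0b2 held no match. Of 32851 RefSeq promoters of this length, 14.0% hold AGGTCA, 11.8% AGTTCA, 3.07% TTATGNAA, 1.33% CAAGGTCA, 0.289% a direct repeat and 0.00609% the inverted repeat. Entries matched 6 of the 10 genes, and not Cyp7a1, Cyp7b1, Cyp39a1 or Slc27a5. Among the other members with an entry, Nr1h4 and start site 2 of Slc10a1 held 1 AGGTCA each, and Cyp8b1 and start site 1 of Slc10a1 held no match. Only the listed letters were searched, so a site that differs from them in any base was not counted. A match here is a run of letters and was not tested as a binding site.

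To ask where along the liver lobule each gene was expressed, hepatocyte nuclei were ordered by a score of zonation markers that includes none of the 10 genes and were divided into 3 zones of equal size within each library, called periportal, middle and pericentral. Bile acid synthesis by the classic route is known to sit near the central vein. Here 3 of 10 genes, Cyp7a1, Cyp27a1 and Cyp7b1, were higher in the pericentral zone, and 1 of 10, Cyp39a1, was higher in the periportal zone. Over all 13448 genes tested, 11.4% were called higher in the pericentral and 11.8% in the periportal zone (edgeR quasi-likelihood test on UMI sums with library as a block, n = 4 libraries, Benjamini-Hochberg adjusted over all genes). The libraries come from 4 different groups, so the test measures what the 4 had in common.

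**Figure D1:**
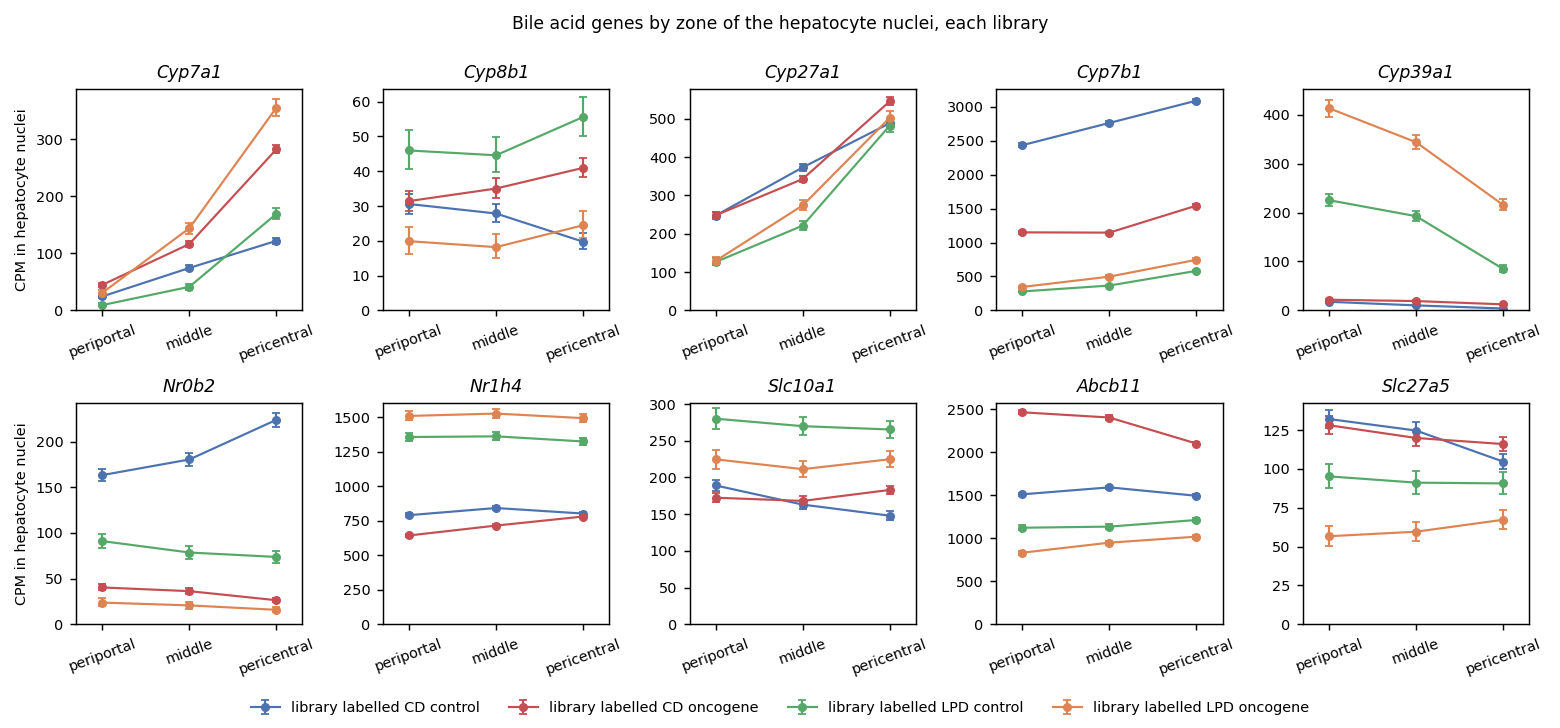
CPM of each gene (vertical axis, from 0, a scale for each gene) in the periportal, middle and pericentral zones of the hepatocyte nuclei, one line per library; bars are exact 95% Poisson intervals. Cyp7a1 and Cyp27a1 climb towards the pericentral zone in all 4 libraries, Cyp39a1 falls, and the lines for Cyp7b1 and Nr1h4 keep the 2 diets apart.

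Cyp7a1, the rate-limiting enzyme of the classic route, had the widest zone difference of the 10. In the periportal zone it stood at 24.4, 44.7, 9.23 and 30.9 CPM, in the middle zone at 74.3, 116, 41.3 and 144 CPM and in the pericentral zone at 122, 282, 169 and 355 CPM. Every library was thus ordered in the same way, by 4.99-fold, 6.31-fold, 18.3-fold and 11.5-fold. The test gave a log2 difference of 2.98 ± 0.22 (SE, adjusted p = 1.05e-06). Thinned to 1000 UMIs, 10.1%, 20.1%, 14.4% and 24.7% of pericentral nuclei held a Cyp7a1 UMI against 2.31%, 3.66%, 0.724% and 2.32% of periportal nuclei. In the other nuclei of the 4 libraries the share was 1.91%, 6.06%, 1.68% and 2.73%, so the periportal share lay under that background in 3 libraries. The periportal interval included the background in the libraries labelled CD control (1.75% to 2.99%) and LPD oncogene (1.72% to 3.07%). Unthinned shares in the pericentral zone were 37.9%, 57.1%, 30.7% and 50.3%.

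Cyp27a1, the mitochondrial enzyme that opens the alternative route, followed the same direction with a smaller step. Its periportal levels were 248, 248, 126 and 129 CPM and its pericentral levels 489, 546, 483 and 503 CPM. The pericentral levels therefore lay close together in the 4 libraries, while the periportal levels of the LPD libraries were lower than those of the CD libraries. The ratio was 1.97-fold and 2.20-fold in the CD libraries and 3.82-fold and 3.89-fold in the LPD libraries, with a log2 difference of 1.45 ± 0.15 (SE, edgeR adjusted p = 1.58e-05). Pericentral nuclei with a UMI made up 37.9%, 38.4%, 35.0% and 36.9% after thinning. The share in other nuclei was 8.92%, 11.6%, 12.8% and 7.60%, and the periportal shares were 22.6%, 20.3%, 10.8% and 11.5%, under it only in the library labelled LPD control.

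Cyp7b1, which hydroxylates the oxysterols of the alternative route and is known to be higher in male than in female mouse liver, differed less between zones than between libraries. It measured 2435, 1150, 279 and 345 CPM in the periportal and 3091, 1544, 582 and 745 CPM in the pericentral zone. The pericentral excess was 1.27-fold and 1.34-fold in the CD libraries and 2.09-fold and 2.16-fold in the LPD libraries, and the log2 difference over all 4 was 0.70 ± 0.12 (SE, edgeR adjusted p = 0.00111).

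Cyp39a1, the 24-hydroxycholesterol 7α-hydroxylase, known as higher in female mouse liver, ran the opposite way. Its periportal levels were 17.6, 21.7, 225 and 414 CPM and its pericentral levels 3.78, 12.3, 84.8 and 216 CPM. All 4 libraries had less of it near the central vein, at 0.215, 0.568, 0.376 and 0.522 times the periportal level, with a log2 difference of -1.24 ± 0.14 (SE, edgeR adjusted p = 3.61e-05). In the CD libraries only 259 and 339 UMIs stood behind the periportal values, and the thinned shares over all hepatocyte nuclei, 1.04% and 1.69%, were no higher than the 1.30% and 1.56% of other nuclei beyond counting error. Its share over all hepatocyte nuclei was thus above that of other nuclei, beyond counting error, only in the LPD libraries. The CD libraries still had the zone difference, at log2 -2.22 (-2.65 to -1.80) and -0.82 (-1.06 to -0.58). In both CD libraries the pericentral level also lay under that of other nuclei, at 14.5 and 16.7 CPM. Those nuclei therefore do not measure the background of that zone.

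**Figure D2:**
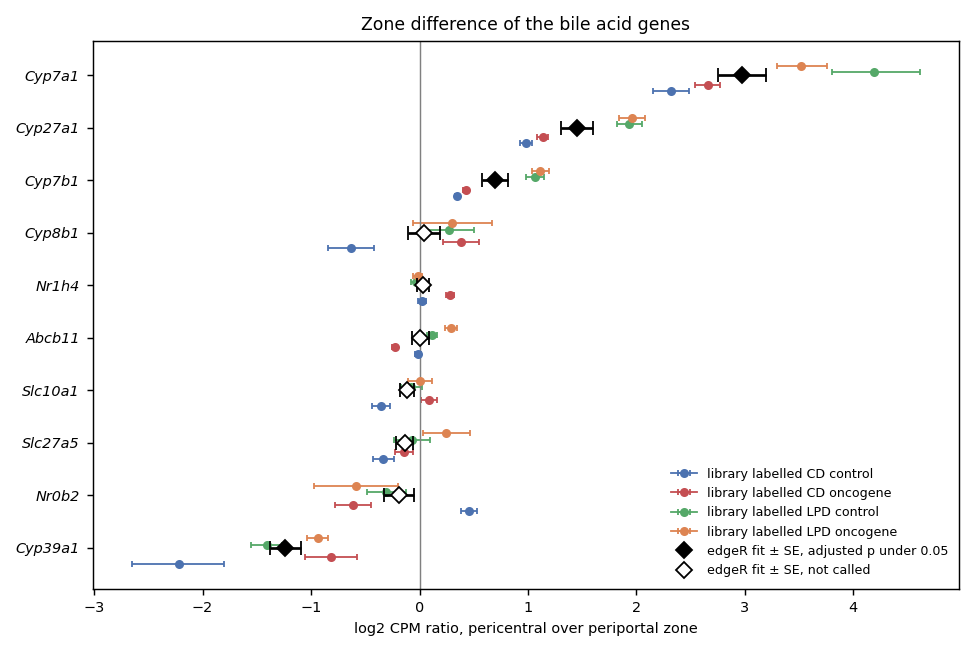
Log2 ratio of CPM in the pericentral over the periportal zone (horizontal axis) for each gene; coloured points are the 4 libraries with exact 95% counting intervals, diamonds the edgeR estimate with its SE, filled where the adjusted p was under 0.05. The 4 filled diamonds are Cyp7a1, Cyp27a1, Cyp7b1 and Cyp39a1, and for Nr0b2 and Cyp8b1 the library labelled CD control lies on the other side of 0 from the rest.

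The other 6 genes did not pass the test over the 4 libraries, and for 5 of them, all but Nr1h4, libraries differed in direction with counting intervals off 0. Nr0b2, the SHP repressor, measured 164, 40.3, 91.1 and 23.7 CPM in the periportal and 224, 26.3, 73.7 and 15.8 CPM in the pericentral zone. It was higher near the central vein in the library labelled CD control, by 0.46 on the log2 scale (0.38 to 0.53), and lower in the others, at -0.62, -0.30 and -0.59, each with an interval below 0. Over all libraries the log2 difference was -0.19 ± 0.14 (SE, edgeR adjusted p = 0.392), and without the library labelled CD control it became -0.51 with an adjusted p of 0.00182.

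Cyp8b1, the sterol 12α-hydroxylase, split in the same way with the sign turned. Its log2 difference was -0.63 (-0.85 to -0.42) in the library labelled CD control and 0.38, 0.27 and 0.30 in the others, where only the last interval (-0.064 to 0.67) included 0, and 0.043 ± 0.15 in all (SE, edgeR adjusted p = 0.886), and 0.30 with an adjusted p of 0.0209 without that library. These values stand on a signal close to background. Thinned hepatocyte shares were 2.49%, 3.19%, 5.16% and 2.31%, against 1.91%, 3.81%, 2.86% and 0.975% in other nuclei, and in CPM the hepatocyte level was 0.929, 1.17, 1.84 and 1.83 times that of other nuclei. In the CD libraries Cyp8b1 was therefore not told apart from free RNA.

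For the transporters and the receptor the steps within a library were small. Abcb11 measured 1512, 2467, 1123 and 832 CPM in the periportal and 1495, 2103, 1213 and 1019 CPM in the pericentral zone, with a log2 difference of 0.0084 ± 0.080 (SE, edgeR adjusted p = 0.964). It was lower near the central vein in the library labelled CD oncogene, by log2 -0.23 (-0.25 to -0.21), and higher in both LPD libraries, by 0.11 (0.065 to 0.16) and 0.29 (0.24 to 0.35). Slc10a1 measured 189, 172, 280 and 225 CPM in the periportal and 148, 183, 265 and 225 CPM in the pericentral zone, a log2 difference of -0.12 ± 0.066 (SE, adjusted p = 0.234). Thinned hepatocyte shares of Abcb11 were 73.4%, 86.3%, 63.2% and 55.2%, against 28.1%, 60.9%, 18.2% and 11.8% in other nuclei. Those of Slc10a1 were 13.5%, 14.2%, 22.25% and 18.2%, against 5.41%, 5.74%, 7.41% and 3.90%. Nr1h4 measured 791, 643, 1357 and 1510 CPM in the periportal and 802, 781, 1325 and 1494 CPM in the pericentral zone, with a log2 difference of 0.032 ± 0.054 (SE, adjusted p = 0.746).

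Slc27a5, the bile acid-CoA ligase, measured 132, 128, 95.2 and 56.6 CPM in the periportal and 105, 116, 90.7 and 67.2 CPM in the pericentral zone. Its log2 difference was -0.14 ± 0.079 (SE, edgeR adjusted p = 0.249), and -0.23 with an adjusted p of 0.0354 without the library labelled LPD oncogene, the only one in which it was higher near the central vein. The hepatocyte level of Slc27a5 was 1.23, 1.14, 1.75 and 1.60 times that of other nuclei in the same library, so its level too was close to that of free RNA, most of all on CD.

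The zones did not mean the same in every library, so zone ratios set side by side compare unlike zones. Summed pericentral markers stood at 7035, 3458, 3027 and 3632 CPM in the pericentral zones, and summed periportal markers at 3329, 6290, 8495 and 4901 CPM in the periportal zones. Periportal markers in the pericentral zones stood at 402, 2408, 3097 and 1597 CPM, above the pericentral markers in the library labelled LPD control. With 1 pair of score limits for all libraries, the pericentral zones held 3946, 2110, 1571 and 2136 nuclei. Between 15.9% and 19.6% of the placed nuclei lay within 0.1 SD of a limit between zones. The part of this in the sizes of the zone differences was not tested.

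Oncogene and control libraries of the same diet were set side by side to ask what followed the injection label. In hepatocyte nuclei Nr0b2 was lower and Cyp7a1 higher in the library labelled oncogene on both diets. On CD every such direction follows labels that the transgene RNA contradicts. At a 2-fold limit (log2 of CPM + 5), 1 of 9 genes was higher and 2 of 9 lower on CD, against 2.38% and 2.09% of the 6463 genes compared, and Cyp39a1 was under the filter of 20 CPM there. On LPD 1 of 10 was higher and 2 of 10 lower, against 1.57% and 1.02% of 6833 genes. The share of all genes that were higher depended on the scaling on CD, with 154 higher and 135 lower by CPM but 223 higher and 97 lower with TMM factors.

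Nr0b2 stood at 190 (interval 186 to 194), 33.4 (31.9 to 35.0), 80.9 (77.0 to 85.0) and 19.8 (17.8 to 21.9) CPM in the 4 libraries. The library labelled oncogene was at 0.176 times the level of the control on CD and at 0.245 times on LPD, or log2 -2.51 (-2.58 to -2.43) and -2.03 (-2.20 to -1.87). In thinned nuclei 17.7% and 3.34% of the CD and 7.13% and 2.08% of the LPD hepatocyte nuclei held a UMI, and in other nuclei the share was likewise lower, at 1.69% against 3.74% and 0.682% against 2.53%. All 3 zones gave the same direction on both diets.

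Cyp7a1 stood at 74.1 (71.7 to 76.6), 161 (157 to 164), 78.5 (74.7 to 82.5) and 188 (181 to 194) CPM. The oncogene libraries were higher, with log2 ratios of 1.12 (1.06 to 1.17) on CD and 1.26 (1.17 to 1.34) on LPD. The 4 libraries thus stood in the opposite order for Cyp7a1 and for Nr0b2, although for Cyp7a1 the neighbours labelled control did not differ beyond counting error (log2 ratio of LPD over CD 0.084, -0.0034 to 0.17). On CD, Cyp7a1 was past the limit in all hepatocyte nuclei and in the pericentral zone but not in the middle or the periportal zone.

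Cyp7b1 went in opposite directions by injection label on the 2 diets. It stood at 2764, 1303, 419 and 543 CPM, with log2 ratios of -1.09 (-1.10 to -1.07) on CD and 0.37 (0.33 to 0.42) on LPD. Cyp8b1 also turned, at 26.2, 36.4, 49.6 and 21.4 CPM, with log2 ratios of 0.47 (0.37 to 0.58) and -1.22 (-1.39 to -1.05). With TMM factors Cyp7b1 on CD moved from -1.08 to -0.93 on the log2 scale of CPM + 5 and so inside the limit.

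Among the transporters and the receptor no ratio by injection label reached 2-fold. Abcb11 stood at 1531, 2300, 1158 and 937 CPM and its log2 ratios were 0.59 on CD and -0.31 on LPD. Slc10a1 stood at 166, 175, 272 and 219 CPM, with 0.076 and -0.31, and Slc27a5 at 121, 121, 92.8 and 62.0 CPM, with 0.0043 and -0.58. Nr1h4 measured 811, 719, 1343 and 1505 CPM, with -0.17 and 0.16, and Cyp27a1 372, 394, 288 and 315 CPM, with 0.085 and 0.13.

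**Figure D3:**
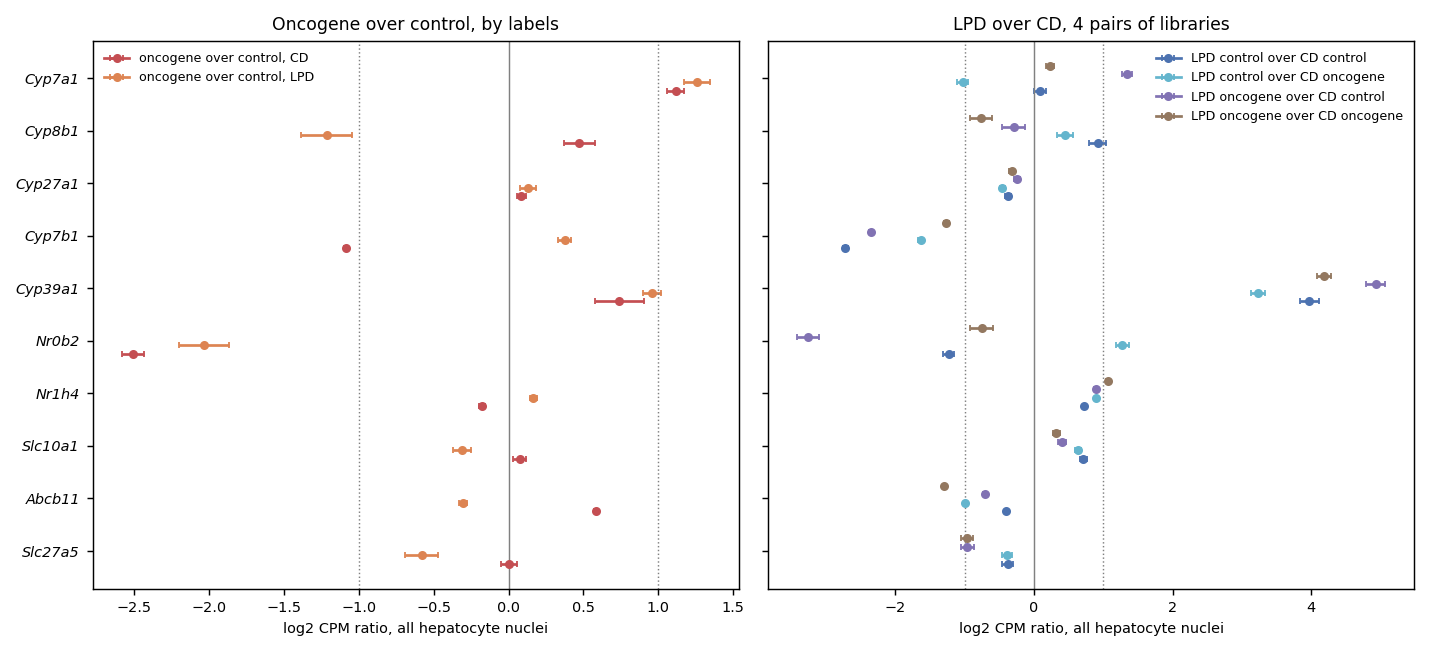
Log2 ratio of CPM over all hepatocyte nuclei (horizontal axis) for each gene, oncogene over control within each diet (left) and each of the 4 LPD over CD pairs (right); bars are exact 95% counting intervals and dotted lines mark 2-fold. On the right, all 4 points of Cyp39a1 lie beyond the upper and all 4 of Cyp7b1 beyond the lower 2-fold line.

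Diets were compared through all 4 pairs of an LPD and a CD library, which does not depend on the injection labels. The 7α-hydroxylases of the oxysterols moved apart: Cyp39a1 was at least 2-fold higher and Cyp7b1 at least 2-fold lower in the LPD library of every pair, 1 of 10 genes in each direction. Of 6506 genes compared, 2.57% were higher and 1.32% lower in all 4 pairs. That background, 167 higher and 86 lower by CPM, became 101 higher and 103 lower with TMM factors. The 4 pairs share libraries, and the diets also differed in depth and in other values given below.

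Cyp39a1 stood at 10.4 (9.47 to 11.4), 17.3 (16.2 to 18.5), 163 (158 to 169) and 317 (308 to 325) CPM. The LPD libraries were 9.42-fold to 30.5-fold higher, with log2 ratios of 3.24 to 4.93. After thinning, 14.6% and 26.1% of LPD hepatocyte nuclei held a UMI against 3.70% and 4.97% of the other nuclei of those libraries. On CD the hepatocyte share was no higher than that of other nuclei beyond counting error. Within the pericentral zone the levels were 3.78, 12.3, 84.8 and 216 CPM and within the periportal zone 17.6, 21.7, 225 and 414 CPM, so both ends of the lobule kept the direction.

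Cyp7b1 was lower in the LPD libraries by log2 -1.26 to -2.72, or 0.417-fold to 0.152-fold. After thinning, 81.3% and 61.9% of CD and 29.1% and 31.5% of LPD hepatocyte nuclei held a UMI, and other nuclei followed with 48.6%, 40.1%, 11.95% and 8.48%. In each zone, too, both LPD libraries lay below both CD libraries.

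Smaller differences with the same sign in all 4 pairs were found for 5 further genes. The share of all genes with the same sign in all 4 pairs was not counted, so this number has no background beside it. Nr1h4 was higher on LPD by log2 0.73 to 1.07 and Slc10a1 by 0.32 to 0.71. Abcb11 was lower by log2 -0.40 to -1.30, Slc27a5 by -0.38 to -0.97 and Cyp27a1 by -0.24 to -0.46. The median log2 ratio of all genes compared in these pairs was 0.13 to 0.26, which is as large as the smallest of these values. All 5 genes kept their sign in every pair with TMM factors, Slc10a1 down to 0.085, but Cyp27a1 had both signs within the pericentral zone. Cyp7a1, Cyp8b1 and Nr0b2 had both signs among the 4 pairs.

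Genes that follow the time of day and the supply of cholesterol differed between the same libraries. Dbp, a clock output that is known to act on the Cyp7a1 promoter, stood at 15.8, 0.393, 70.0 and 23.2 CPM, Nr1d1, the clock repressor REV-ERBα, at 55.9, 8.06, 132 and 58.4 CPM, and Arntl, the clock activator BMAL1, at 65.0, 215, 31.0 and 31.9 CPM. The library labelled CD oncogene had the least Dbp and the most Arntl. Per1 was at 1.54 and 2.36 CPM in the CD and 54.5 and 41.9 CPM in the LPD libraries. Of 13 clock genes, which include Dbp and Nr1d1, 1 was higher and 1 lower on LPD past 2-fold in all 4 pairs of the 11 compared, beside the 2.57% and 1.32% of all genes. Hmgcs1 of cholesterol synthesis stood at 346, 57.1, 38.1 and 99.2 CPM, and 5 of 9 genes of the cholesterol list were past 2-fold lower in the library labelled CD oncogene than in that labelled CD control, beside 2.09% of all genes, with a median log2 ratio of -1.02. On LPD the same list had 2 genes past 2-fold higher and 0 lower, beside 1.57% and 1.02% of all genes, with a median of 0.42. Median mitochondrial shares were 2.42%, 0.983%, 0.10% and 0.13%. The part of these values in the differences between libraries was not tested, and with 1 library a group they cannot be told apart from diet or injection.

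In the library labelled CD control, which held nearly all transgene RNA, 86 hepatocyte nuclei had a transgene UMI and 7572 had none, with median depths of 7338 and 4959 UMIs. Of the 86, 79 were placed in the pericentral zone by the score, so the comparison was repeated within it. The score counts Glul, Cyp2e1, Cyp1a2 and Lgr5, which the study found high in oncogene-expressing hepatocytes. The study placed those cells mostly in periportal and midzonal areas, so the score need not give their position. The comparison is therefore matched by score and not by position. Within the pericentral zone Cyp8b1 was at 3.84 CPM (3 UMIs, interval 0.792 to 11.2) in nuclei with and 20.6 CPM in nuclei without a transgene UMI (log2 -2.42, -4.71 to -0.86). Cyp8b1 in this library was not told apart from free RNA. Median depths in the zone were 7549 UMIs in nuclei with and 4910.5 UMIs in nuclei without a transgene UMI. Nr0b2 was higher in positive nuclei, at 292 against 220 CPM (log2 0.40, 0.20 to 0.60), and Cyp7a1 at 149 against 120 CPM (log2 0.30, 0.019 to 0.57). Cyp7b1 was at 2724 against 3110 CPM (log2 -0.19, -0.25 to -0.13) and Slc10a1 at 118 against 150 CPM (log2 -0.34, -0.66 to -0.043), while the intervals of Cyp27a1, Cyp39a1, Nr1h4, Abcb11 and Slc27a5 included 0. These nuclei come from 1 library, and leaving them out changed no count of members past 2-fold and no member called by the zone test.

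Nr1h4 was at least as high in another class of nuclei as in hepatocytes. In nuclei with the markers of stellate cells, the vitamin A-storing cells between hepatocytes and endothelium, it stood at 1435, 1110, 2103 and 1574 CPM, against 811, 719, 1343 and 1505 CPM in hepatocyte nuclei. Thinned shares were 75.8%, 61.8%, 86.4% and 73.3% in stellate-like and 53.8%, 46.9%, 70.6% and 72.8% in hepatocyte nuclei, so the stellate-like share was higher beyond both intervals in 3 of 4 libraries, and the intervals overlapped in the library labelled LPD oncogene, where only 105 stellate-like nuclei were deep enough. Other nuclei without the stellate-like ones had 18.0%, 24.5%, 20.9% and 16.8%. Median depths were 1079 to 1831 UMIs in stellate-like and 2296 to 4992 UMIs in hepatocyte nuclei. Summed stellate markers in hepatocyte nuclei were 89.0 to 146 CPM, with none of the 7 at 0.

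**Figure D4:**
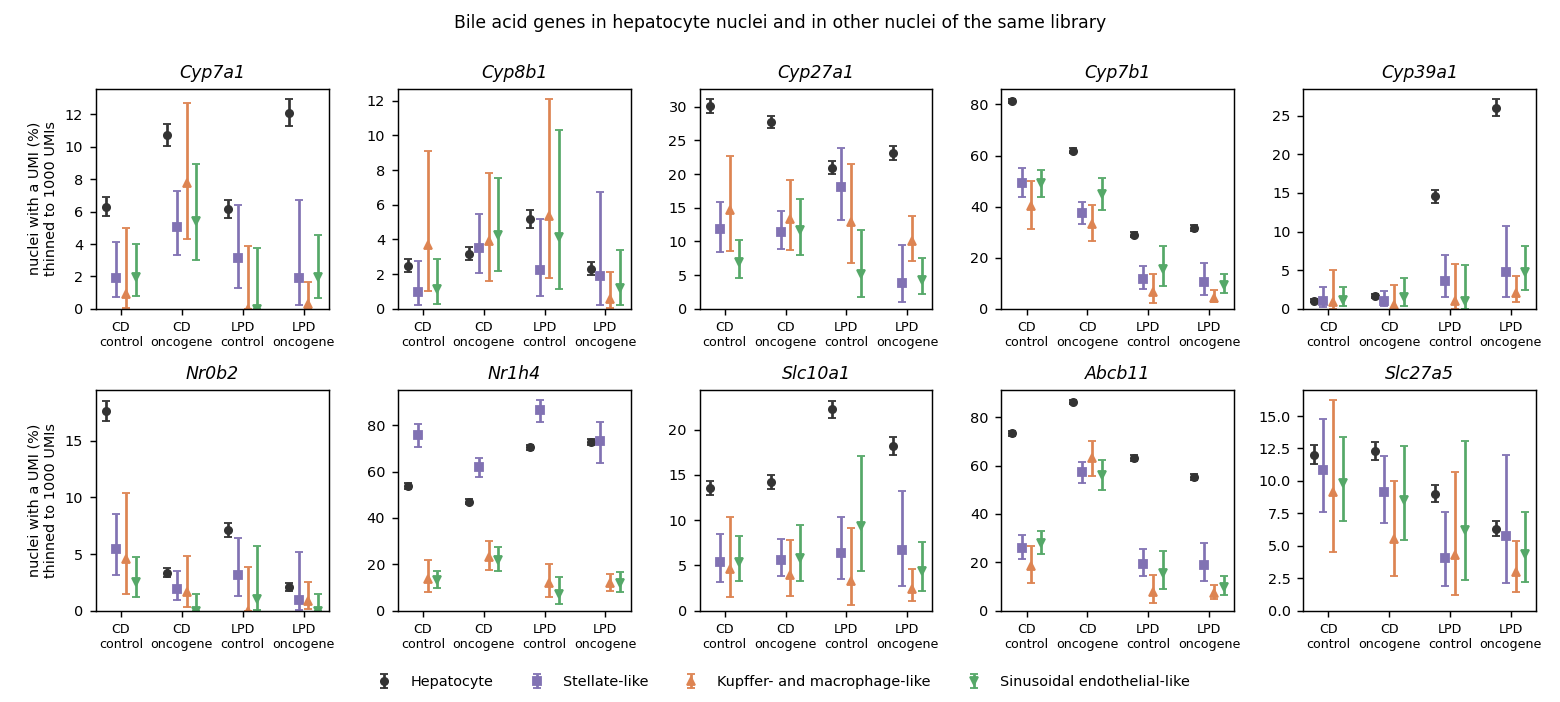
Share of nuclei with at least 1 UMI after thinning to 1000 UMIs (vertical axis, percent, from 0) for each gene, in hepatocyte nuclei and 3 classes of other nuclei of the same library; bars are exact 95% Clopper-Pearson intervals. Nr1h4 is highest in stellate-like nuclei, beyond the hepatocyte interval in all but the library labelled LPD oncogene, where the intervals overlap. For Cyp39a1 in the CD libraries the hepatocyte intervals overlap those of the other classes.

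The wider pathway was read in 48 further genes of bile acid synthesis, conjugation, transport and control, all present in the matrices. Of the 44 that passed the filter, 19 were higher in the pericentral and 5 in the periportal zone, beside 11.4% and 11.8% of all genes tested, with a median log2 difference of 0.15 beside -0.0029 over all genes. By role, 3 of 6 genes of ring synthesis, 1 of 2 of conjugation, 4 of 7 genes of peroxisomal side-chain shortening, 3 of 4 of uptake, 3 of 7 of canalicular export and both of the basolateral exporters that passed the filter were pericentral, as were 3 of 13 nuclear receptors and regulators and 0 of 3 FGF and membrane receptors. The periportal calls were 1 of ring synthesis, 1 of canalicular export (Atp8b1), 2 of the nuclear receptors and regulators (Hnf4a and Dbp) and 1 of the FGF and membrane receptors (Fgfr4). Among 9 genes of cholesterol supply 0 were pericentral and 3 periportal, and among 13 clock genes 0 and 6.

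Of the pathway genes, 6 passed the test with at least a 2-fold higher pericentral level in the fit over all 4 libraries. Slco1b2, the organic anion transporter that takes up unconjugated bile acids, measured 779, 589, 1143 and 1120 CPM in the periportal and 3932, 2141, 3156 and 2584 CPM in the pericentral zone (log2 1.69 ± 0.13 SE, edgeR adjusted p = 1.04e-06). Nr1i3, the xenobiotic receptor CAR, had a log2 difference of 1.70 ± 0.17 (adjusted p = 1.30e-05), Sult2a8, a bile acid sulfotransferase, 1.49 ± 0.19 (9.04e-05) and Akr1c6 1.41 ± 0.08 (6.59e-08). Abcc4, a basolateral exporter, had 3.19 ± 0.31 (9.40e-06) at low levels of 1.49 to 12.1 CPM, and Cyp3a11, a bile acid and drug hydroxylase, 1.34 ± 0.32 (0.00891). For Cyp3a11 the pericentral excess was 1.85-fold and 1.25-fold in the CD and 8.19-fold and 3.83-fold in the LPD libraries. Sult2a8 was at 1.86-fold in the library labelled CD control and Nr1i3 at 1.91-fold in that labelled LPD oncogene. Cyp46a1, which makes the 24-hydroxycholesterol that Cyp39a1 uses, was periportal like Cyp39a1, with -1.02 ± 0.19 (0.00184), at 0.804 to 11.7 CPM.

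Between diets 3 of the 40 pathway genes compared were past 2-fold lower and 0 higher on LPD in all 4 pairs, beside 1.32% and 2.57% of all genes. Cyp2c70, which makes the muricholic acids of mice, stood at 498, 432, 64.9 and 190 CPM, Cyp3a11 at 215, 575, 70.3 and 92.1 CPM and Abcg8, part of the sterol exporter of the canaliculus, at 139, 153, 63.3 and 40.4 CPM. By injection label, on CD against the transgene RNA, Nr1d1 was past 2-fold lower in the oncogene library of both diets, with log2 ratios of -2.79 and -1.18. Dbp, under the filter of 20 CPM on CD, also had ratios past 2-fold, at -5.33 and -1.59.

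Over the 12 sums of 4 libraries and 3 zones, the genes whose log2 levels followed Cyp7a1 most closely were Tenm3 (Pearson r = 0.956), Ang (0.939) and Wdr7 (0.932), out of 7581 genes ranked. Cyp8b1 was followed most closely by Mthfd1 (0.948), Tmem53 (0.927) and Oaf (0.918), and Abcb11 by Mreg (0.988), Blcap (0.984) and Coq8a (0.984). The zones of a library share its RNA and depth, so these values describe likeness only.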

How the data were processed

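Nuclei from frozen liver were sequenced with 10x Genomics 3′ chemistry. The deposited matrices hold UMI counts per gene and barcode; the file headers give Cell Ranger 9.0.1, and the submitters' processing notes name mm10 and Seurat 5. From these counts, nuclei with 200 to 7000 genes and at most 21% mitochondrial UMIs were kept, log-normalized, corrected for library with a NumPy Harmony on 50 components of 5000 variable genes and clustered on the leading 23 (Louvain, resolution 0.4, igraph 0.11.9). Clusters with markers of a second class and high Apob were removed as doublets, and 1319 nuclei led by haemoglobin RNA were left out. Member counts were summed per library and zone. Zone was tested with edgeR 4.0.16 (TMM, filterByExpr, library block), called at adjusted p under 0.05 and checked on simulated data, with DESeq2 1.42.0 as an alternative. Ratios between libraries used CPM with a pseudocount of 5 and genes of at least 20 CPM and 50 UMIs. Pathway genes were named if called by zone past 2-fold, past 2-fold in all 4 diet pairs, or within both diets; likeness was ranked for Cyp7a1, Cyp8b1 and Abcb11. Members and lists were chosen with earlier results of these data known. The authors' intron setting is not given in the sources used here.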

Additional observations from a re-analysis of the deposited data

Results flagged for a closer look

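By injection label, 5 genes had opposite signs on the 2 diets with both counting intervals off 0. The share of all genes that did so was not counted, so the 5 are not set against a background. The difference between the diets was not tested, since each diet had 1 library of each label. Cyp8b1 had log2 ratios of oncogene over control of 0.47 on CD and -1.22 on LPD, although on CD its hepatocyte level was not told apart from free RNA. Cyp7b1 had log2 ratios of -1.09 on CD and 0.37 on LPD. Abcb11 had 0.59 and -0.31, Slc10a1 0.076 and -0.31, and Nr1h4 -0.17 and 0.16. Slc10a1 on CD changed sign in the periportal zone alone, to -0.13 on the log2 scale of CPM + 5. Transgene RNA goes against the labels of the CD pair, so each sign on CD depends on which label holds. With the CD labels exchanged these 5 genes would share a sign on both diets, and Cyp7a1, Nr0b2, Cyp27a1 and Cyp39a1, which share one here, would have opposite signs.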

How the results depend on the processing

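The zone test was repeated under 15 alternatives: DESeq2, library totals in place of TMM, no filter on low counts, other limits and depths of the zone score, stricter nuclei, clusters without correction, no transgene-positive nuclei, no nuclei rich in other cells' markers, each library left out, and, chosen after seeing the data, the haemoglobin-led nuclei counted as hepatocytes. Cyp7a1, Cyp27a1, Cyp7b1 and Cyp39a1 kept direction and call in all 15, with log2 differences of 2.74 to 3.63, 1.30 to 1.71, 0.56 to 0.83 and -1.63 to -1.09 and adjusted p of at most 0.0146. Leaving out 1 library gave 1 to 2 periportal (the added ones Nr0b2 without the library labelled CD control and Slc27a5 without that labelled LPD oncogene) and 3 to 4 pericentral members and 2220 to 2759 genes in all, against 3118.

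Cyp8b1, Nr1h4 and Abcb11, near 0, changed sign under some alternatives, and were not called where they did. With the outermost nuclei only, 5 parts in place of 3, Cyp8b1 was at -0.063 and Abcb11 at -0.012. Abcb11 was at -0.0013 with the zone score unthinned, -0.028 with stricter nuclei and -0.0016 with clusters not corrected for library. Leaving out 1 library moved Cyp8b1 between -0.080 and 0.30, Nr1h4 between -0.030 and 0.055, and Abcb11 between -0.086 and 0.11.

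Between libraries, members at least 2-fold higher in the library labelled CD oncogene numbered 0 with CPM averaged over nuclei, 0 in the middle zone and 0 in the periportal zone, against 1. Those lower numbered 1 with TMM factors and 1 in the pericentral zone, against 2. In the library labelled LPD oncogene 2 were higher in the pericentral zone, against 1. Cyp39a1 on CD, under the filter, was at 0.54 without it. The diet counts of 1 higher and 1 lower in all 4 pairs held in all 12 alternatives. No paired analysis was possible because each group has 1 library; the zone test already blocks on library. Unthinned shares and shares at 2000 UMIs were higher than those at 1000, and a difference of any size between injection groups cannot be separated from the single libraries behind it.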
